A study of Homo sapiens with 12 samples.

Results

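Polysome loading after depletion of EIF3G was measured in H1299, an established line of human lung carcinoma cells. They received either siEIF3G, an equal mix of 2 siRNAs against EIF3G, or the control siRNA siCtrl, in each case with jetPRIME reagent, and were lysed 72 h later. From each lysate 10% was set aside as the input, and polysomes were recovered from the remainder on sucrose (10% to 50%). The 12 libraries, all prepared with oligo(dT) selection of mRNA, form 4 groups of 3: siCtrl input, siCtrl polysomal, siEIF3G input and siEIF3G polysomal. The quantity described here is the change in loading, which is polysomal minus input with siEIF3G, minus the same difference with siCtrl, on log2(TPM + 1), where TPM, a length-corrected unit, give the share of a gene in a library. All 12 libraries were used, and the genes are the 10605 of 16172 in the table whose TPM averaged 1 or more over these libraries. A positive change means that the share of an mRNA in the polysome fraction, relative to its share in the lysate, was higher with siEIF3G.

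An mRNA that is being translated carries one or more ribosomes, and an mRNA with many of them sediments into the heavy part of a sucrose gradient, the polysomes. eIF3 is the multi-subunit factor that brings the small ribosomal subunit and the mRNA together during initiation. EIF3G encodes a subunit with an RNA recognition motif that sits at the edge of the complex and takes part in scanning for the start codon. Because initiation sets how many ribosomes an mRNA carries, loading is the usual readout for a loss of an initiation factor. TPM are shares, so a lower amount of polysomes in total leaves them as they are, and fewer polysomes per cell and fewer cells per lysate cannot be told apart.

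The strands used against EIF3G, and the control, are shown because every comparison below rests on them. They are printed 5′ to 3′ as the labels give them, in lower case with no part marked, and where they lie in the EIF3G mRNA was not analysed here.
siEIF3G-4: gaacaaactcaagggccagaa
siEIF3G-5: gaggtcatcaacggaaacata
siCtrl: ttctccgaacgtgtcacgt

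Of the 12 libraries 3 stood apart from their groups. The epithelial keratins KRT8 and KRT18, the mesenchymal filament VIM and the kinase AXL were expressed in every library, AXL the least of them at 40.35 to 141.81 TPM, while the mesenchymal cadherin CDH2 was at 0.15 to 6.83 TPM and the receptor MET at 0.7 to 18.73 TPM. Of the listed markers of airway, blood, endothelium and fibroblasts, those in the table were at 0.7 TPM or less, and the others were not analysed here. Between 8093 and 11477 genes reached 1 TPM in a library, and the depth is unknown, since reads cannot be had from TPM. siCtrl input 1, siEIF3G input 2 and siEIF3G polysomal 3 correlated more with the other fraction of the same siRNA than with their own group. After the mean of each group was taken away, the first principal axis of what remained held 78.02% of the variance. On it siCtrl input 1 was at 0.589 and siEIF3G input 2 at 0.442, while siCtrl input 3 was at the other end, at -0.424. The labels do not say that replicates are separate cultures, so each p-value speaks of the spread among these 12 libraries, and that spread may be technical.

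No gene passed for a change in polysome loading. With limma 0 of 10605 genes (0%) had a Benjamini-Hochberg adjusted p under 0.05, and the smallest adjusted p was 0.908. At an unadjusted p under 0.05 were 16 genes with a positive change (0.151%) and 3 with a negative one (0.0283%), where 530.2 would be expected by chance. The median standard error was 0.62, and a gene with the median error would have needed a change of 1.35 to reach an unadjusted p of 0.05. The changes spanned -0.38 to 1.19 between the 5th and the 95th percentile, with a median of 0.38, and 73.9% were positive and 26.1% negative. The median depends on the scaling, at -0.03 with size factors and -0.01 with quantile normalization, where 48.3% and 49.3% of genes were positive. It also depends on single libraries, being 0.80 when siCtrl input 1 was left out and 0.12 when siCtrl input 3 was. The median was 0.16 without siEIF3G input 2 and 0.26 without siEIF3G polysomal 3. With the 3 libraries that stood apart left out together it was 0.42, and 87.05% of genes were positive. Since the median moves with the scaling and with single libraries, changes are also given minus the median of all genes ("relative to all genes").

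On group means, the range of loading across genes was narrower with siEIF3G, while the ranges of single pairs of libraries overlapped. With siCtrl the loading of the 10605 genes had a median of -0.96 and ran from -2.12 at the 5th percentile to 0.98 at the 95th. With siEIF3G the median was -0.49 and the same percentiles were -1.3 and 0.89. There were 762 genes with a loading under -2 with siCtrl and 43 with siEIF3G, whereas 504 and 342 genes were above 1. The interquartile range was 1.69 with siCtrl and 0.99 with siEIF3G. Taken over each pair of 1 input and 1 polysomal library, it went from 0.66 to 2.70 with siCtrl and from 0.66 to 2.06 with siEIF3G, so the siRNAs overlapped in it. The narrowest pair of siCtrl was input 1 with polysomal 2, and those of siEIF3G were input 2 with polysomal 1 and input 3 with polysomal 3, so each held 1 of the 3 libraries that stood apart. Among pairs with none of the 3, the interquartile range went from 1.56 to 2.70 with siCtrl and from 1.65 to 2.06 with siEIF3G.

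**Figure D1:**
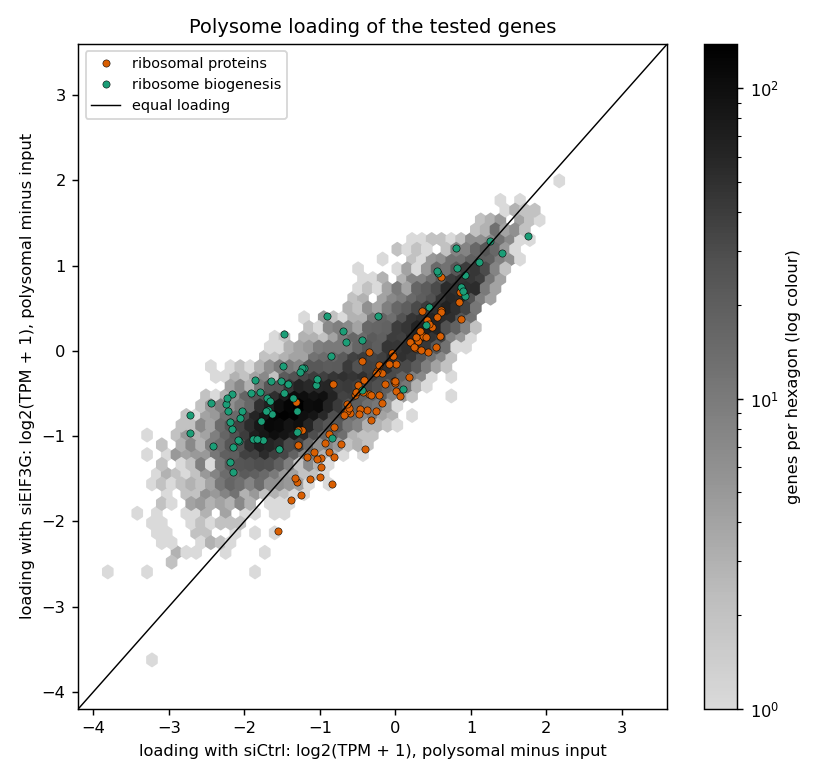
Loading of each tested gene with siCtrl (horizontal) and with siEIF3G (vertical), both as polysomal minus input on group means of log2(TPM + 1), with the number of genes per hexagon in grey, ribosomal protein genes in orange and ribosome biogenesis factors in green; 6 genes lie outside the plotted range. Genes with a loading near -2 with siCtrl lie mostly above the line of equal loading, and the ribosomal protein genes lie mostly on or below it. The siCtrl loading is subtracted in the change, so genes picked for a low siCtrl loading tend to lie above the line.

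Across genes the loading change went with the first axis, which is the variation between libraries of the same group. Pearson's r between the change and a gene's weight on that axis was -0.81 and Spearman's rank coefficient -0.834 over 10605 genes, which share the 12 libraries and are not independent. Genes that were scarce in siCtrl input 1 and siEIF3G input 2 relative to their groups thus had the more positive loading changes. The part of this axis in the changes described below was not tested. Below, the median of each list without the 3 libraries is given, and that of a gene named by rule where it turned or moved by over 1.5 times. Size factors shifted the changes of the 107 genes that the rule names down by a similar amount (-0.557 to -0.313), so changes of single genes near 0 rest on the scaling. With a library's position on the axis as a covariate, limma called 1910 genes higher and 2 lower (18.0% of those tested). The positions sum to 0 within each group, so this term left each change as it was and lowered its error, and since the axis comes from the same values the p-values are too small.

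**Figure D2:**
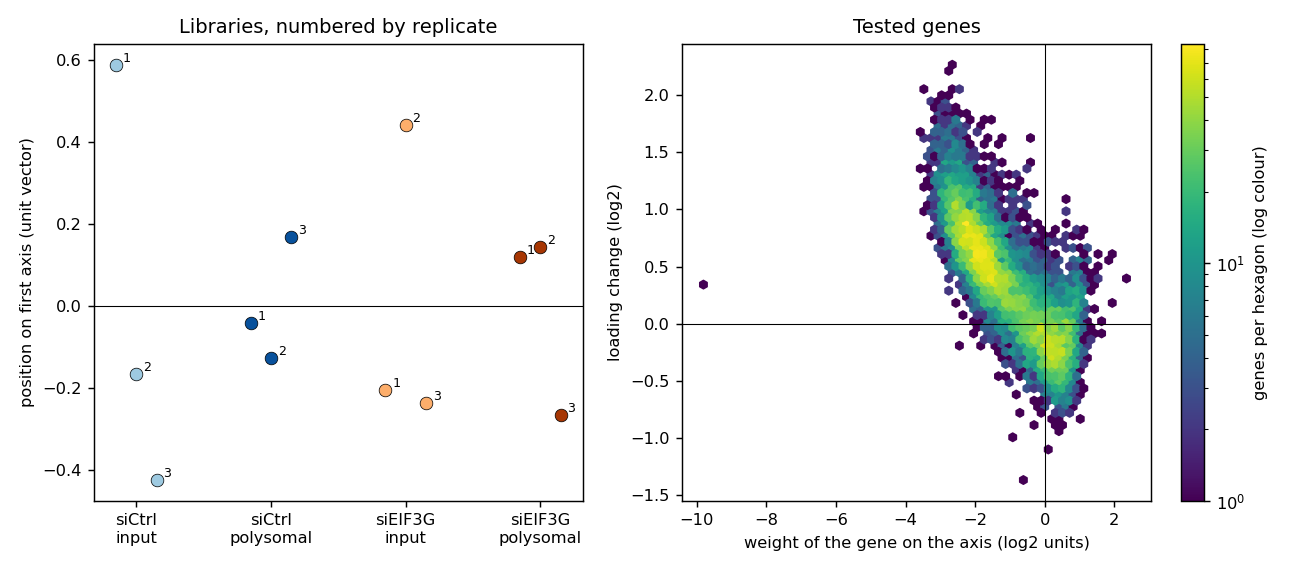
Left, the position of each library on the first axis within groups, numbered by replicate; right, the loading change of each tested gene (log2) against its weight on that axis, with the number of genes per hexagon in colour. siCtrl input 1 (0.589) and siEIF3G input 2 (0.442) lie at the top, and genes with more negative weights have more positive changes (r = -0.81).

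EIF3G itself was lower with siEIF3G in both fractions, and its loading was close to the same value with either siRNA, with a wide interval. In siCtrl input it was at 1158, 1092 and 878 TPM, and in siCtrl polysomal RNA at 1679.9, 1916 and 1803 TPM. In siEIF3G libraries it was at 60.7, 84.7 and 47.3 TPM in input and at 143, 132 and 69.2 TPM in polysomal RNA. Every siEIF3G library lay below every siCtrl library. The loading was 0.79 with siCtrl and 0.80 with siEIF3G, a change of 0.00 (SE 0.41, 95% interval -0.88 to 0.89, limma adjusted p = 0.998). Relative to all genes the change was -0.38, and without the 3 libraries it was 0.47 before that subtraction.

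The genes with the smallest p among positive changes encode chaperones, adhesion and cytoskeletal proteins and nuclear factors. HSP90B1, the HSP90 of the endoplasmic reticulum, was at 32.4, 131 and 193 TPM in siCtrl input and at 9.77, 15.4 and 4.30 TPM in siCtrl polysomal RNA. With siEIF3G it was at 130.2, 33.6 and 104 TPM in input and at 27.1, 32.8 and 59.8 TPM in polysomal RNA. All 3 siEIF3G polysomal libraries lay above all 3 siCtrl ones, while the input groups overlapped. Here and below, the share of all tested genes whose polysomal groups do not overlap was not counted. In polysomal RNA the median effect of siEIF3G over all tested genes was 0.33. The loading of HSP90B1 was -3.28 with siCtrl and -1.02 with siEIF3G, a change of 2.26 (SE 0.94, 95% interval 0.23 to 4.29, limma adjusted p = 0.908). It was 1.76 with quantile normalization, 2.10 without the 3 libraries that stood apart, and between 1.67 and 3.02 with each library left out in turn.

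CTNNB1, which encodes beta-catenin, a protein of cell junctions and Wnt signalling, had the same layout. In siCtrl it was at 11.8, 55.1 and 76.9 TPM in input and at 8.15, 4.68 and 2.41 TPM on polysomes. In siEIF3G it was at 51.3, 19.5 and 68.5 TPM in input and at 20.2, 21.5 and 35.7 TPM on polysomes. The polysomal groups did not overlap, the input groups did, and the low input library of each siRNA was siCtrl input 1 and siEIF3G input 2. The change was 2.07 (SE 0.91, limma adjusted p = 0.908).

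VCP, the ATPase that extracts proteins for degradation, went in siCtrl from 60.6, 170 and 211 TPM in input to 76.5, 24.1 and 16.5 TPM on polysomes. With siEIF3G it was at 117, 82.8 and 165 TPM in input and at 84.8, 122 and 101 TPM on polysomes. Its polysomal groups did not overlap, and its loading of -2.01 with siCtrl and -0.20 with siEIF3G gave a change of 1.81 (SE 0.76). MCM2, a subunit of the replicative helicase, was at 56.5, 99.1 and 102 TPM in siCtrl input and at 113, 50.4 and 35.4 TPM on siCtrl polysomes. The siEIF3G libraries had 69.0, 85.7 and 106 TPM in input and 122, 230.3 and 128 TPM on polysomes, so its polysomal groups did not overlap and its input groups did.

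MCM2 and 7 other genes named on the positive side had changes of 0.84 to 2.20 and a limma adjusted p of 0.908 each. The cytosolic chaperone HSP90AA1 was at 2.20 (SE 0.98) and MTHFD1, an enzyme of folate metabolism, at 2.02 (SE 0.92). EZR, which links actin to the membrane, was at 1.71 (SE 0.78) and the actin crosslinker ACTN4 at 1.58 (SE 0.70). MCM2 was at 1.32 (SE 0.58), the RNA helicase SKIV2L of the cytoplasmic exosome at 1.11 (SE 0.47), CIAO2A, of iron-sulfur protein assembly, at 0.98 (SE 0.44), and XAB2, a splicing and repair factor, at 0.84 (SE 0.37). MCM2, SKIV2L and XAB2 had a positive loading with siEIF3G, at 0.83, 0.89 and 1.07, whereas the loading of the other 5 was negative with either siRNA. With size factors MCM2, SKIV2L, CIAO2A and XAB2 were at 0.79, 0.59, 0.46 and 0.30, and CIAO2A was at 0.63 with quantile normalization. HSP90B1, VCP, CTNNB1, HSP90AA1, CIAO2A, MTHFD1 and EZR were called with the axis covariate, as were 18.0% of all tested genes. Its p-values are too small and these genes were picked by p for the same change, so the calls add no support. None of the genes named here was called without the 3 libraries, where the smallest adjusted p of any gene was 0.566.

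The genes with the smallest p among negative changes were mostly high on polysomes in control cells. The siCtrl loading is subtracted in the change, so a choice by negative change favours genes with a high siCtrl loading. H1-2, a linker histone, was at 39.8, 55.3 and 37.3 TPM in siCtrl input and at 60.2, 74.6 and 85.4 TPM in siCtrl polysomal RNA. After EIF3G depletion it was at 56.2, 69.4 and 57.1 TPM in input and at 54.5, 46.0 and 42.3 TPM in polysomal RNA. Every siCtrl polysomal library was above every siCtrl input library, and every siEIF3G polysomal library was below every siEIF3G input library. The loading went from 0.73 to -0.35, a change of -1.08 (SE 0.36, 95% interval -1.86 to -0.30, limma adjusted p = 0.908). It was -1.24 with quantile normalization, -0.84 without the 3 libraries, and between -1.25 and -0.96 with each library left out. H1-2 was among the 2 genes called lower with the axis covariate, whose p-values are too small. H1-2 is on chromosome 6 at positions 26055740 to 26056470 (GRCh38.p14), and mRNAs of this histone class lack a poly(A) tail in dividing cells, while the libraries were made by oligo(dT) selection.

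RPL29, a protein of the large ribosomal subunit, was at 2486, 2774 and 2585 TPM in siCtrl input and at 2378, 2804 and 3002 TPM in siCtrl polysomal RNA. In siEIF3G libraries it was at 3131, 3286 and 3549 TPM in input and at 2380, 2162 and 2373 TPM on polysomes. Each siEIF3G polysomal library was below each siEIF3G input library, whereas the siCtrl fractions overlapped. The change was -0.58 (SE 0.24, limma adjusted p = 0.908), and it was -0.48 with quantile normalization and -1.13 with size factors.

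UBE2C, the ubiquitin-conjugating enzyme of the anaphase-promoting complex, was at 817, 929 and 1159 TPM in siCtrl polysomal RNA and at 562, 536 and 411 TPM in siEIF3G polysomal RNA, with no overlap. In input it was at 495, 650.4 and 625 TPM with siCtrl and at 404, 507 and 635 TPM with siEIF3G. CDKN1A, the cell cycle inhibitor p21, was at 136, 175 and 201 TPM in siCtrl polysomal RNA and at 98.7, 94.2 and 74.2 TPM in siEIF3G polysomal RNA, again with no overlap. Its input levels were 89.8, 104 and 78.4 TPM with siCtrl and 59.7, 93.0 and 94.5 TPM with siEIF3G. The changes were -0.73 (SE 0.33) for UBE2C and -0.76 (SE 0.37) for CDKN1A. Without the 3 libraries they were -0.47 and -0.53, and with size factors -1.28 and -1.31.

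**Figure D3:**
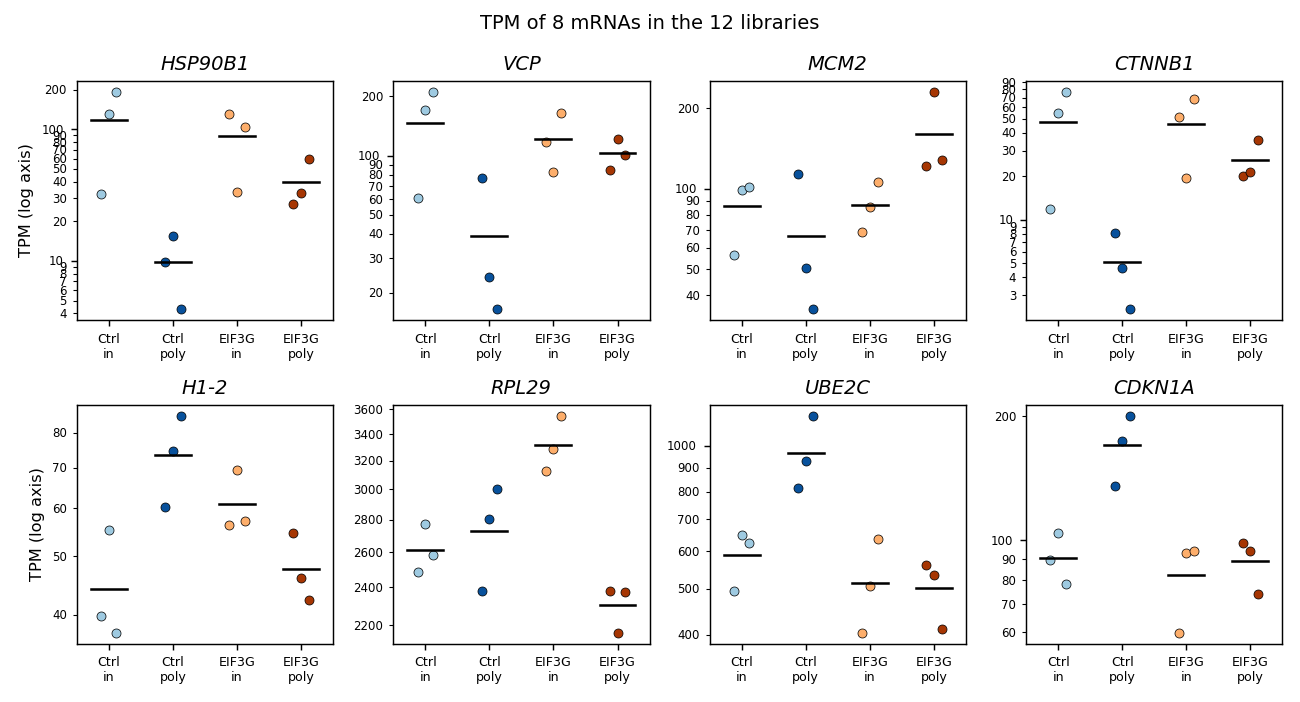
TPM (log axis) of 8 genes in the 12 libraries, with the libraries as points in the order of their replicate numbers, the group mean as a bar, and the groups siCtrl input, siCtrl polysomal, siEIF3G input and siEIF3G polysomal from left to right. In the upper row the siCtrl polysomal points lie lowest for HSP90B1 and CTNNB1 and the siEIF3G polysomal points highest for MCM2; in the lower row the siCtrl polysomal mean is the highest for H1-2, UBE2C and CDKN1A, and the siEIF3G polysomal mean is the lowest for RPL29.

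The other 7 genes named on the negative side had changes of -0.86 to -0.66 and a limma adjusted p of 0.908 each. They were the calcium sensor HPCAL1 at -0.85 (SE 0.40), ARHGDIA at -0.71 (SE 0.34), the kinase BCKDK of branched-chain amino acid breakdown at -0.86 (SE 0.42), the membrane receptor PAQR4 at -0.74 (SE 0.37) and the small GTPase RHOG at -0.84 (SE 0.43). ATP6V0C, of the lysosomal proton pump, was at -0.68 (SE 0.35) and the deubiquitinase OTUB1 at -0.66 (SE 0.34). All 7 had a positive loading with siCtrl, from 0.63 for HPCAL1 to 1.09 for RHOG. Without the 3 libraries the 7 changes were smaller in size, from -0.46 for OTUB1 to -0.30 for HPCAL1. With size factors they were larger in size, from -1.39 for BCKDK and HPCAL1 to -1.21 for OTUB1.

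The loading values of the siRNAs did not overlap, whichever polysomal library was set against whichever input library, for 4 genes with a higher loading (0.0377%) and 10 with a lower loading (0.0943%) of the 10605. The 4 were chosen for naming after this count was seen: the replication clamp loader subunit CHTF18, the iron sensor and ubiquitin ligase subunit FBXL5, the oxoprolinase OPLAH, and STK11IP, a partner of the kinase LKB1. FBXL5 was at 64.1, 64.7 and 66.8 TPM in siCtrl input and at 53.5, 54.5 and 42.5 TPM in siEIF3G input. On polysomes it was at 15.5, 19.0 and 17.9 TPM with siCtrl and at 17.9, 16.6 and 21.9 TPM with siEIF3G, so its change of 0.48 (SE 0.35) came with input levels that did not overlap and polysomal levels that did. CHTF18 had the reverse layout in polysomal RNA, at 15.5, 11.9 and 10.2 TPM with siCtrl and 19.1, 26.3 and 22.9 TPM with siEIF3G, with a change of 0.73 (SE 0.41). Among the 10 lower genes were H1-2, RPL29, BCKDK and PAQR4 of those named above.

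Among the translation initiation factors, most had a positive change, as did 73.9% of all tested genes, and none passed. That share is the one to set beside each count of positive genes below. Of the 13 listed genes for other eIF3 subunits 11 were positive, with a median of 0.68, which is 0.30 relative to all genes. EIF3C, a core scaffold subunit whose reads are shared with its near copy EIF3CL, was at 72.3, 218 and 268 TPM in siCtrl input and at 86.8, 27.0 and 17.7 TPM on siCtrl polysomes. With siEIF3G it was at 214, 149.9 and 398 TPM in input and at 152, 176 and 197 TPM on polysomes, so that its polysomal groups did not overlap and its input groups did. Its change was 1.76 (SE 0.81, limma adjusted p = 0.908), that of EIF3CL 0.06 (SE 1.22). EIF3A, the largest subunit, was at 1.61 (SE 1.16) and EIF3D, which can bind the cap, at 1.09 (SE 0.83). EIF3B and EIF3I, which contact EIF3G in the complex, were at 0.94 (SE 0.73) and 0.46 (SE 0.58), named after their values were seen. Without the 3 libraries the median of the list was 0.00 relative to all genes, and without siEIF3G polysomal 3 alone it was 0.04.

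The eIF4 factors, which recruit mRNA through the cap and unwind its leader, were listed together with genes of poly(A) binding. This list was positive in 16 of 17, and its median was 1.04 (0.65 relative to all genes, 0.36 without the 3 libraries and 0.32 without siEIF3G input 2 alone). The RNA helicase DDX3X was at 1.87 (SE 1.07), the helicase cofactor EIF4B at 1.28 (SE 0.92) and the scaffold EIF4G1 at 1.05 (SE 0.69). The factors of scanning, start codon choice and the eIF2 cycle were positive in 20 of 21, and their median was 0.70 (0.31 relative to all genes, 0.06 without the 3 libraries and also without siEIF3G polysomal 3 alone). The ribosome recycling ATPase ABCE1 was at 1.56 (SE 0.97), the subunit joining factor EIF5B at 1.49 (SE 1.08) and EIF1B, a copy of the scanning factor eIF1, at 0.78 (SE 0.60, 0.43 without the 3 libraries). Elongation and termination factors stood on the other side of all genes, with 12 of 17 positive and a median of 0.27 (-0.11 relative to all genes, 0.12 with quantile normalization, -0.05 without the 3 libraries and -0.31 without siCtrl input 1 alone). EEF1A1, which delivers aminoacyl-tRNA, was at 0.93 (SE 0.82), the termination factor GSPT1 at 1.06 (SE 0.99) and EEF1G at -0.32 (SE 0.30). Without the 3 libraries GSPT1 was at 0.65 and EEF1G at -0.05.

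Ribosomal proteins and the factors that build ribosomes lay on opposite sides of all genes in the values as deposited. Of 34 tested proteins of the small subunit 8 had a positive change and of 51 of the large subunit 11, against 73.9% of all genes. The medians were -0.16 and -0.17, which is -0.54 and -0.55 relative to all genes. These values rest on the scaling: relative to all genes they were -0.67 and -0.68 with size factors, but 0.05 and -0.15 with quantile normalization. They were -0.60 and -0.68 without the 3 libraries, -0.97 and -1.01 without siCtrl input 1 alone, and -0.28 and -0.39 without siCtrl input 3 alone. The summed share of ribosomal proteins was 28.8% to 36.6% of the libraries in siCtrl input and 34.3% to 39.5% in siEIF3G input. In polysomal RNA it was 23.5% to 28.6% with siCtrl and 26.2% to 27.97% with siEIF3G, so the siRNAs overlapped in both fractions. Beside RPL29, members named by rule were RPLP2 at -0.49 (SE 0.27), RPS19 at -0.42 (SE 0.33, -0.15 without the 3 libraries) and RPS14 at -0.32 (SE 0.25).

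Factors of ribosome biogenesis, which mature the rRNA and put the subunits together, were positive in 56 of 67, and their median was 0.93 (0.55 relative to all genes). That relative median was 0.56 with size factors, 0.47 with quantile normalization, 0.35 without the 3 libraries, and between 0.30 (without siEIF3G input 2) and 0.76 (without siCtrl input 1) with each library left out. DDX21, a nucleolar helicase, was at 10.3, 53.3 and 86.4 TPM in siCtrl input and at 7.81, 6.88 and 1.71 TPM on siCtrl polysomes. The siEIF3G libraries had 63.0, 12.1 and 66.2 TPM in input and 13.2, 20.6 and 37.0 TPM on polysomes, a change of 1.96 (SE 1.12). UTP6, of the small subunit processome, was at 1.67 (SE 0.91), while NHP2, a protein of box H/ACA particles, was at -0.54 (SE 0.29, -0.25 without the 3 libraries). The medians of loading were -1.48 with siCtrl and -0.49 with siEIF3G for biogenesis factors, and -0.40 and -0.39 for small subunit proteins.

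Ribosomal protein mRNAs begin with a terminal oligopyrimidine (TOP) tract, a C at the cap followed by a run of pyrimidines, through which mTOR signalling controls their translation. A TOP-like start was scored, on the strand of the gene only, as a C within 5 bases of the RefSeq start from which at least 6 pyrimidines (C or T) run without a break. It was found in 50 of 68 ribosomal protein genes with a start sequence, in 11.9% of the 8830 tested genes with a start sequence and in 11% of all starts in the RefSeq table. The starts of 5 genes named by rule are shown because they share this feature and differ in loading change. Each is 25 bases, 10 before the annotated start and 15 from it on, 5′ to 3′ on the strand of the gene, with the pyrimidines from the scored C on in capitals, though the unbroken run can begin before that C (RefSeq, GRCh38.p14).
RPL29, chr3:51995881-51995905, minus strand: cagccCCTTTCTCTTCCggttctag
RPLP2, chr11:809957-809981, plus strand: tcggcgCCTTCCTTTTCCTCCCTgt
RPS19, chr19:41860245-41860269, plus strand: ccccgtcgttCCCTTTCCCCTggct
EEF1A1, chr6:73521018-73521042, minus strand: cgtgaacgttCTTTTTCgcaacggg
IPO5, chr13:97953665-97953689, plus strand: tgggattgatgaCCTCCCacaactg

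Counted from the scored C, the run was 12 bases in RPL29, 17 in RPLP2, 11 in RPS19, 7 in EEF1A1 and 6 in IPO5, an importin that carries ribosomal proteins to the nucleus. The loading changes were -0.58, -0.49 and -0.42 for the ribosomal proteins and 0.93 and 1.61 (SE 0.95) for EEF1A1 and IPO5. The other mRNAs listed as carrying a TOP tract were positive in 15 of 17, and their median was 0.71 (0.32 relative to all genes, 0.06 without the 3 libraries and 0.15 without siEIF3G polysomal 3 alone), among them VIM at 1.15 (SE 0.64). Of the 12 of them with a start sequence only 8 had a TOP-like start as scored here, and VIM was not among these 8. Among ribosomal protein genes the median change was -0.19 for the 50 with a TOP-like start and -0.16 for the 18 without. Among other genes it was 0.38 for 1001 with such a start and 0.40 for 7761 without.

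The cytosolic aminoacyl-tRNA synthetases, which charge tRNA with amino acids, were positive in 22 of 22, and their median was 1.07 (0.69 relative to all genes, 0.38 without the 3 libraries and 0.31 without siCtrl polysomal 3 alone). TARS1 was at 1.97 (SE 1.13), LARS1 at 1.84 (SE 1.08) and RARS1 at 1.78 (SE 0.88, limma adjusted p = 0.908). RARS1 was at 29.5, 31.4 and 11.9 TPM in siCtrl polysomal RNA and at 47.0, 63.1 and 98.6 TPM in siEIF3G polysomal RNA, with no overlap. Its input levels of 32.1, 87.4 and 139 TPM with siCtrl and 100.2, 23.4 and 97.3 TPM with siEIF3G overlapped.

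Stress mRNAs with upstream open reading frames and targets of ATF4 formed a list that lay near all genes as deposited. Translation of some mRNAs with such frames is known to hold when initiation is limited. The genes of this list were positive in 20 of 27, and their median was 0.35 (-0.04 relative to all genes, -0.35 without the 3 libraries, -0.42 without siEIF3G input 1 alone and 0.20 without siEIF3G input 3 alone). The glutamine transporter SLC1A5 was at 0.56 (SE 0.40), IBTK at 1.19 (SE 0.97) and ASNS, which makes asparagine, at 1.52 (SE 1.41, 0.21 without the 3 libraries). With siEIF3G, ASNS was at 39.2, 29.6 and 396 TPM in input and at 30.5, 34.7 and 326 TPM on polysomes. Replicate 3 was thus far above the others in both fractions. The summed share of the list was 0.358% in siEIF3G input 3 and 0.345% in siEIF3G polysomal 3. In the rest of the libraries it was 0.0883% to 0.189%. The mRNAs listed as bound by eIF3 or with sensitive leaders were positive in 10 of 12, and their median was 0.65 (0.26 relative to all genes, 0.00 without the 3 libraries and 0.01 without siEIF3G polysomal 3 alone). CDK4, a kinase of the G1 phase, was at -0.42 (SE 0.32), CDK1, of mitosis, at 0.83 (SE 0.67) and the survival factor MCL1 at 1.11 (SE 1.00). Without the 3 libraries CDK4 was at -0.26 and CDK1 at 0.44. Immediate early genes, the first answer to growth factors, were positive in 16 of 28, and their median was 0.30 (-0.08 relative to all genes, -0.06 without the 3 libraries). The transcription factor JUND was at -0.63 (SE 0.40) and IER3 at -0.48 (SE 0.41), and without the 3 libraries they were at -0.33 and -0.15.

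Chaperones of both compartments lay above all genes. Heat shock proteins were positive in 17 of 19, and their median was 1.01 (0.63 relative to all genes, 0.77 with quantile normalization and 0.88 without the 3 libraries). HSP90AA1 was at 455, 1491 and 2318 TPM in siCtrl input and at 282, 359.7 and 105 TPM on siCtrl polysomes. The siEIF3G libraries had 1236, 212 and 848 TPM in input and 373, 498 and 797 TPM on polysomes, where all 3 values lay above the siCtrl ones. HSP90AB1 was at 1.67 (SE 0.84) and HSPA8 at 1.48 (SE 0.74). Endoplasmic reticulum chaperones were positive in 19 of 22, and their median was 0.71 (0.33 relative to all genes, 0.26 without the 3 libraries), among them the lectin chaperone CANX at 1.89 (SE 1.00) and the disulfide isomerase PDIA3 at 1.72 (SE 0.82).

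The machinery and the cargo of the secretory pathway lay closer to all genes. Translocation and N-glycosylation genes were positive in 37 of 42, and their median was 0.54 (0.15 relative to all genes, 0.07 without the 3 libraries), with SRP54, of the signal recognition particle, at 1.46 (SE 0.98). STT3A was at 1.3 (SE 0.87) and OSTC at 0.87 (SE 0.54, 0.50 without the 3 libraries), both of the oligosaccharyltransferase. Integrins, receptors and matrix proteins were positive in 22 of 28, and their median was 0.41 (0.02 relative to all genes, 0.21 without the 3 libraries and -0.06 without siCtrl input 2 alone). ITGB1, the beta-1 integrin, was at 39.9, 47.8 and 13.9 TPM on siCtrl polysomes and at 98.2, 134 and 229.9 TPM on siEIF3G polysomes, with no overlap. Its input levels of 63.3, 227 and 351 TPM with siCtrl and 354, 78.8 and 333 TPM with siEIF3G overlapped. The change of ITGB1 was 1.94 (SE 0.98). The integrin ITGA6 was at 1.51 (SE 1.08) and the transferrin receptor TFRC at 1.78 (SE 0.96).

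Genes of the cell cycle had, as deposited, the highest median of the 30 lists (mitosis). Mitosis genes were positive in 36 of 40, and their median was 1.22 (0.84 relative to all genes). The relative median was 0.80 with size factors, 0.83 with quantile normalization, 0.60 without the 3 libraries, and between 0.45 (without siEIF3G input 2) and 1.00 (without siCtrl input 1) with each library left out. The kinesin KIF20A was at 1.75 (SE 0.94), the spindle factor TPX2 at 1.71 (SE 0.93) and HMMR at 1.59 (SE 0.88). The median effect of siEIF3G on the mitosis genes was -0.45 in input and 0.61 in polysomal RNA. DNA replication genes were positive in 38 of 43, and their median was 0.85 (0.47 relative to all genes, 0.46 without the 3 libraries and 0.73 without siCtrl polysomal 1 alone), and MCM4 was at 1.67 (SE 0.80) and the primase subunit PRIM2 at 1.46 (SE 0.73).

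Mitochondrial and proteasome genes were near or below all genes, and their side depended on the scaling. Mitochondrial ribosomal proteins were positive in 50 of 77, and their median was 0.14 (-0.25 relative to all genes, 0.01 with quantile normalization and -0.32 without the 3 libraries). MRPL37 was at -0.70 (SE 0.37, -0.25 without the 3 libraries). Complex I subunits were positive in 24 of 37 (-0.20 relative to all genes, 0.08 with quantile normalization and -0.32 without the 3 libraries), with the core subunit NDUFS1 at 1.59 (SE 0.92). Subunits of complexes II to V were positive in 22 of 38 (-0.31, and 0.04 and -0.44 in the same settings), with ATP5F1A, a catalytic subunit of ATP synthase, at 1.3 (SE 0.89). Proteasome subunits were positive in 24 of 32 (0.01, and 0.39 and -0.01), with PSMD1, of the regulatory particle, at 1.94 (SE 0.99). Without siCtrl input 1 alone the medians of the 3 mitochondrial lists were -0.56, -0.69 and -0.74, and that of complex I was 0.04 without siEIF3G input 2 alone.

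The other lists are given with their median relative to all genes as deposited, then with quantile normalization and without the 3 libraries. SR splicing factors were at 0.46, 0.51 and 0.18 with 19 of 19 positive, and SON was at 1.42 (SE 1.07). Iron genes were at 0.35, 0.34 and 0.43 with 11 of 12 positive, and NCOA4, the receptor for ferritin breakdown, was at 1.43 (SE 0.90). Both lists lay above all genes in each of these settings. Glycolytic enzymes were at 0.17, 0.41 and 0.32 with 14 of 17 positive, and at -0.12 without siEIF3G polysomal 2 alone. PGK1 was at 1.12 (SE 0.78) and TPI1 at -0.47 (SE 0.32, -0.18 without the 3 libraries). Cholesterol biosynthesis genes were at 0.04, 0.30 and 0.38 with 18 of 24 positive, and at -0.09 with size factors. Zinc finger ZNF genes were at 0.02, -0.04 and -0.08 with 243 of 309 positive, and ZNF414 was at -0.68 (SE 0.45). Selenoproteins were at -0.13, 0.07 and -0.23 with 13 of 17 positive, and at 0.20 without siCtrl input 3 alone. SELENON was at -0.91 (SE 0.65) but at 0.02 without the 3 libraries. Polyamine and tubulin genes were at -0.16, 0.21 and 0.10 with 16 of 19 positive, and the spermidine synthase SRM was at -0.67 (SE 0.47, -0.20 without the 3 libraries). The other genes that the rule names in the ZNF, selenoprotein and polyamine lists had positive changes, from 0.42 to 1.15. Replication-dependent histones were at -0.21, -0.32 and -0.24 with 25 of 36 positive, and at 0.01 without siCtrl input 3 alone. H2BC9 was at -0.69 (SE 0.69) but at 0.17 without the 3 libraries. Beside H1-2, the other histone that the rule names was at 0.80 (SE 0.72). The side of the cholesterol, ZNF, selenoprotein and polyamine lists thus depended on the setting, and that of the glycolytic and histone lists on a single library.

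**Figure D4:**
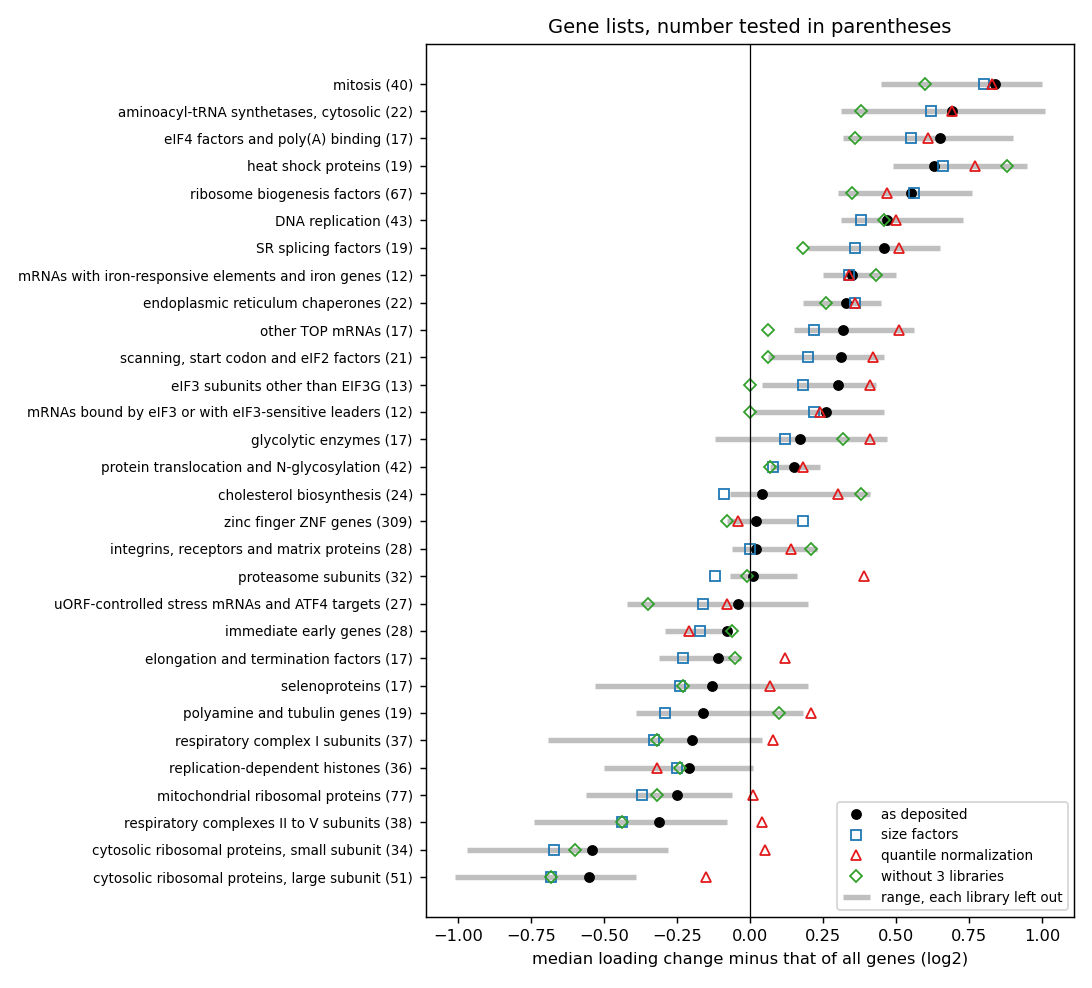
Median loading change of each gene list minus that of all genes (log2), as deposited (filled circles), with size factors (squares), with quantile normalization (triangles) and without the 3 libraries that stood apart (diamonds), with the range over each library left out as a grey bar. Mitosis genes (0.84 as deposited) lie at the top and ribosomal proteins (-0.55 and -0.54) at the bottom, where the triangles lie near 0.

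Of the features that the choice of genes did not use, genomic length went with the loading change under each of the 4 settings compared. The tested genes with a RefSeq length were put in 5 groups of equal size by the length of the gene from start to end, introns included. The median change was 0.00 in the group of 387 to 9486 bases, then 0.18, 0.44 and 0.58, and 0.64 in the group of 84549 to 1553091 bases. In these outer groups 50.4% and 92.0% of genes were positive. Relative to all genes the shortest and longest groups were at -0.38 and 0.25 as deposited, -0.47 and 0.33 with size factors, -0.20 and 0.16 with quantile normalization, and -0.26 and 0.16 without the 3 libraries. The median weight on the first axis went along, from 0.06 in the shortest group to -1.90 in the longest, and its part in this trend was not tested.

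**Figure D5:**
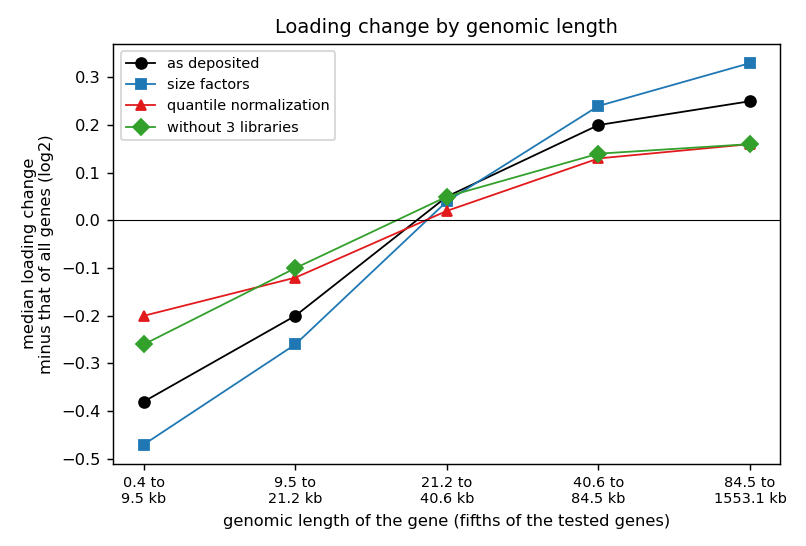
Median loading change minus that of all genes (log2) in 5 groups of tested genes by genomic length (kb), as deposited and under 3 other settings. The shortest genes are at -0.38 and the longest at 0.25 as deposited, and each line goes up from left to right.

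The level of the mRNA and the base composition of its start went with smaller or less stable differences. The most abundant group, of 50.8 TPM or more, had a median change of 0.01 and the group of 3.10 to 7.02 TPM one of 0.59. Relative to all genes these were -0.37 and 0.20 as deposited but -0.03 and 0.05 with quantile normalization. For the GC content of the first 50 transcribed bases, known for 8830 genes, the median change was 0.45 in the group of 22.0% to 60.0% GC and 0.24 in that of 76.0% to 98.0%. Relative to all genes the GC-rich group was at -0.14 as deposited and with quantile normalization, and at -0.05 without the 3 libraries.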

How the data were processed

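The deposited file holds TPM per gene and library, which the authors computed; per the submitters' processing notes RSEM 1.3.1 and genome build GRCh38.p13 were used. The aligner, annotation and filters were not given in the sources used here. Each library sums to about 1000000 TPM, so depth is unknown and no counting interval can be given; the precision is that of 3 libraries a group. No column was left unmapped. log2(TPM + 1) of genes averaging 1 TPM or more was fitted with limma 3.58.1 (R 4.3.3) with 4 group means, a mean-variance trend and 8 residual degrees of freedom, and the interaction of siRNA and fraction was adjusted by Benjamini-Hochberg over all 10605 genes. The pseudocount understates changes of low genes. The script was tested on simulated data with independent noise in each library. That test does not cover variation that genes share along the first axis. Named genes were EIF3G, 12 in each direction by p at a mean of 5 TPM or more (since none passed), and up to 3 of each list by p. The members, lists and rules were chosen with earlier results of these data known, and the TOP-like score, the length, level and GC groups and the overlap of library pairs after seeing the data. Replicate numbers are shared by the groups, but the labels do not say that they mark one lysate. The alternatives were other pseudocounts, filters, scalings, moderation, blocks, an axis covariate and libraries left out. RefSeq tables (GRCh38.p14, a later patch release of the same assembly) matched 10589 tested genes by symbol or synonym and gave start sequences for 8830 of them. Some genes that the rule names are not reported here.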

Additional observations from a re-analysis of the deposited data

Results flagged for a closer look

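The loading of H1-2 was above 0 with siCtrl and below 0 with siEIF3G in every pair of a polysomal and an input library, a change of -1.08. The direct test of that difference, limma's interaction, gave an adjusted p of 0.908.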

How the results depend on the processing

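No gene was called under any alternative except the axis covariate, with 1912 calls. The numbers of genes at an unadjusted p under 0.05 were 19 as deposited, 126 with size factors, 75 with quantile normalization, 132 with no filter, 732 without the 3 libraries that stood apart, and 1 to 2274 with each library left out, the highest without siCtrl input 1. Deviations of polysomal and input libraries of the same siRNA and number correlated from -0.526 to 0.634. Not every pair was above 0.1, so the numbers were not taken to pair the libraries, and whether they mark one lysate is not known. With the replicate number as a block 0 genes were called (7 at an unadjusted p under 0.05), and with siRNA and number together as the block 0 (15). Size factors put the EIF3G change at -0.552, PSMA6 at -0.023, NDUFA1 at -0.068 and TXNRD2 at -0.117. EIF3G was at -0.029 with a pseudocount of 5, at -0.082 with a total without ribosomal proteins, and from -0.192 to 0.331 with each library left out (-0.188, -0.129, -0.076, -0.044, -0.034 and -0.015 among them). Without the 3 libraries H2BC9 was at 0.166 and SELENON at 0.019. Chosen after seeing the data, quantile normalization without the 3 libraries gave EIF1B -0.062, EEF1G 0.184, ASNS -0.426, NDUFA1 -0.005, MRPS23 -0.107 and CLK1 -0.221. Size factors without them gave EIF3G -0.129, EIF1B -0.122, ASNS -0.325, CDK1 -0.135, OSTC -0.063, PSMA6 -0.276, NDUFA12 -0.17, NDUFA1 -0.478, MRPS23 -0.189, CLK1 -0.046, TXNRD2 -0.208 and SAT1 -0.013. The cause of these reversals was not tested.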
